A study of Mus musculus with 16 samples.

Results

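The genes described here encode the machinery that copies DNA in S phase: the helicase and its loaders, the polymerases with their clamp, the enzymes that supply nucleotides, the factors that assemble chromatin behind the fork, and the cyclin and E2F genes that open S phase. They were chosen by name from their known function, with earlier results of these data known. The list held 46 genes, and 42 of them were measured among the 18820 genes of the arrays. Gins2, Ccne2, Tyms and Rfc4 were not analysed because their probe sets named several genes. RNA came from RAW264.7 cells, an established mouse line with macrophage features that was derived from a virus-induced tumour and divides in culture. The 4 groups of 4 arrays each were cultured for 24 h with solvent control (ethanol at 0.1% by volume), with 1 µM docosahexaenoyl serotonin (DHA5HT, a fatty acid joined to serotonin), with 1 µg/ml lipopolysaccharide (LPS, a cell wall component of Gram-negative bacteria that macrophages sense through TLR4), or with both (LPS+DHA5HT). The treatment protocol gives vehicle to the control and LPS groups, while the per-sample labels name ethanol for the controls alone. The labels do not state if arrays of one group stem from independent cultures. The p-values therefore reflect how far these samples scatter, which may be technical.

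Values are log2 intensities, on which a difference of 1 is a 2-fold change. A value after ± is the SD of 4 arrays, and SE is the moderated standard error of a change. All 12 macrophage markers were measured, with a median level of 11.56 in controls, 11.60 with DHA5HT, 11.70 with LPS and 11.72 with both. Cd68 stood at 12.50 to 12.59 as group means and Lyz1 at 5.13 to 5.57, near the median gene (5.24), and the median level of T cell, B cell, NK cell and epithelial markers was 3.51. Neutrophil, fibroblast and endothelial marker lists had median levels of 3.67, 4.67 and 3.60 in controls and 3.81, 4.76 and 4.29 with LPS. The summed macrophage level was 14.87 to 14.97 in controls and 15.02 to 15.10 with LPS, and the part of these shifts in the results was not tested. Group means of the replication genes lay at 6.29 or above. LPS+DHA5HT array 1 carries a title with both agents and a treatment label with DHA5HT alone. Its Il6 level was 10.21, against 10.17 to 10.55 on the other LPS+DHA5HT arrays and 2.83 to 3.21 on the DHA5HT arrays, and the main counts, medians and calls that rest on it are also given without it. LPS+DHA5HT array 4 stood apart from the other arrays on the second principal component (−22.4, others from −9.36 to 10.0).

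Replication is prepared in G1, when the origin recognition complex, Cdc6 and Cdt1 load the ring of Mcm2 to Mcm7 onto DNA, and it starts when the kinases Cdc7-Dbf4 and cyclin E-Cdk2 turn that ring into a working helicase with Cdc45 and the GINS proteins. Many of the genes involved are transcribed in one wave at the G1/S border by E2F factors, which the retinoblastoma proteins hold in check in resting cells. Genes of mitosis follow later and are known for another promoter element, the cell cycle homology region (CHR), bound by the DREAM and B-Myb complexes.

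Promoter sequence was not used to choose the genes. RefSeq promoters of build GRCm38.p6, which run from 250 bases before to 50 bases after each start site, were found for 36 of the 42 genes (43 promoters). They were searched on both strands for the E2F words TTTCCCGC, TTTCGCGC, TTTGCCGC and TTTGGCGC, for the CHR word TTTGAA and for CCAAT, the word of the factor NF-Y. An E2F word was present in 15 of the 43 promoters (34.9%), against 10.7% of 28 promoters of mitosis and spindle genes and 2.26% of 32851 promoters of that length in the table. For the CHR word the shares were 18.6%, 82.1% and 17.9%, and for CCAAT 58.1%, 85.7% and 37.4%. Mean GC content was 60.2%, 59.2% and 53.8% in the same order. E2F words on opposite strands can overlap each other and were then counted separately, and 1 of the 21 E2F words in these promoters overlapped a CHR or CCAAT word. A match is a description of the letters and shows no binding.

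**Figure D1:**
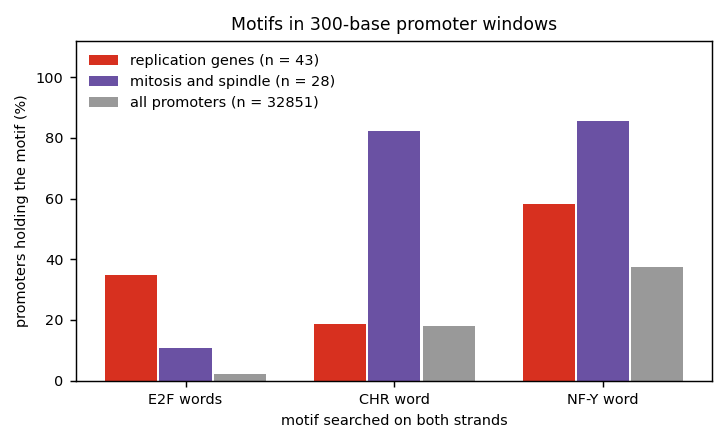
Share of promoter windows, in percent, that hold at least 1 E2F word, the CHR word or the word of NF-Y, for the measured replication genes, for mitosis and spindle genes and for all promoters in the RefSeq table. The E2F bar is highest for replication genes (34.9%) and the CHR bar for mitosis and spindle genes (82.1%).

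The 180 bases before the start site are printed for 5 of these genes, because they show the word alone and overlapping and include the member whose LPS change did not pass, Orc1. Capitals mark the E2F words, and the sequences run 5′ to 3′ on the gene's own strand. Mcm6 (chr1:128359706-128359885, minus strand) and Mcm5 (chr8:75109329-75109508, plus strand) are helicase subunits. Gins3 (chr8:95633379-95633558, plus strand) belongs to the GINS complex. Cdc6 (chr11:98907971-98908150, plus strand) and Orc1 (chr4:108579274-108579453, plus strand) act in origin licensing.
Mcm6: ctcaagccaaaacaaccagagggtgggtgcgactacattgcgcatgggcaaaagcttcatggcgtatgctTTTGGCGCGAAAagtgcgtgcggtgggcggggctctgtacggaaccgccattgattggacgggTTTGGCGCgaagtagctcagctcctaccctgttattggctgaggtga
Mcm5: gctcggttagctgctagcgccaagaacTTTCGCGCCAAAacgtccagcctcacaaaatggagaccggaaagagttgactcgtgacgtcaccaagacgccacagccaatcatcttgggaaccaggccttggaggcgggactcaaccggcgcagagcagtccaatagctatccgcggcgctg
Gins3: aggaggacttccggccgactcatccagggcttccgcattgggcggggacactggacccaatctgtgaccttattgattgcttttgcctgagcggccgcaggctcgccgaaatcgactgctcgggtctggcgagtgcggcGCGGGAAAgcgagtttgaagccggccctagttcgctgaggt
Cdc6: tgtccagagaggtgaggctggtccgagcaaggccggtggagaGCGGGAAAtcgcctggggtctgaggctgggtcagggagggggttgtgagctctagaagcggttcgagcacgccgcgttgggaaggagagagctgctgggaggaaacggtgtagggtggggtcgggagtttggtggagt
Orc1: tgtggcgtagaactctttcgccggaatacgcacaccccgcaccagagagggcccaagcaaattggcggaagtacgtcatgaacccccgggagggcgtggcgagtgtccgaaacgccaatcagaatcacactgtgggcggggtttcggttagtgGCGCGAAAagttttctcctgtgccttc
In Mcm6 and Mcm5 words on opposite strands overlap, and Mcm6 holds a further one closer to its start site. Gins3, Cdc6 and Orc1 hold 1 each. Of these 5 genes, Cdc6 and Orc1 mark opposite ends of the LPS response in origin licensing.

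LPS against control asks how the stimulus changed transcript levels in 24 h. Of the 42 replication genes 41 fell and 0 rose (limma, adjusted p under 0.05 over all 18820 genes), and on 41 genes all 4 LPS arrays lay below all 4 control arrays. Among all genes 15.8% fell and 12.6% rose, and 16.1% had LPS arrays that all lay below the controls. The median change of the 42 genes was −0.80, which leaves 57.6% of the control level, while the median over all genes was 0.00406. Centring each array on its median turned the balance over all genes from 2376 higher and 2970 lower to 3043 and 2468 but left 41 replication genes lower. Fewer cells in S phase and less of these transcripts per cell cannot be told apart in bulk RNA.

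**Figure D2:**
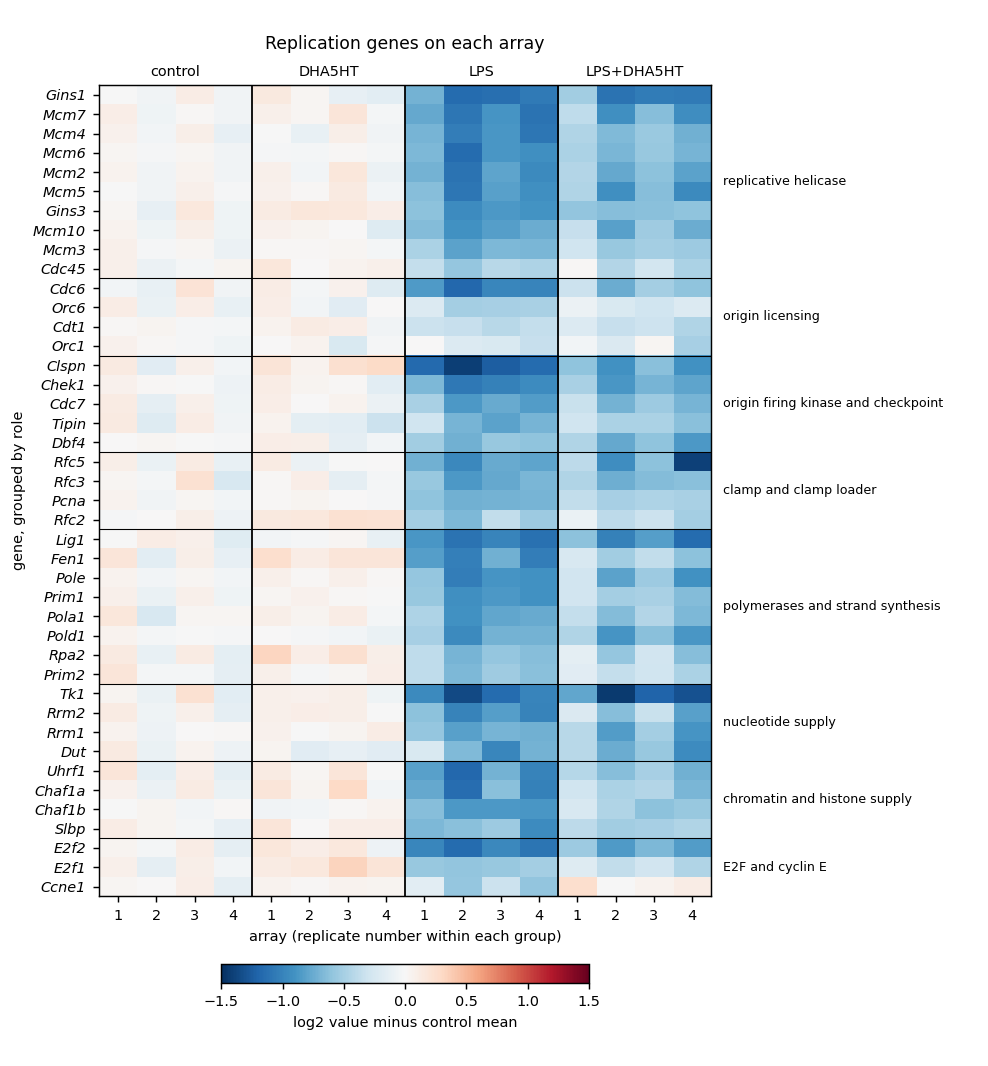
Log2 value minus the mean of the 4 control arrays (colour, blue lower and red higher) for 42 replication genes (rows, grouped by role and sorted within a role by the LPS change) on 16 arrays (columns, replicate number within each group). LPS columns are blue for nearly all genes and LPS+DHA5HT columns are paler for most, with Ccne1 near its control level.

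All 10 measured subunits and activators fell, with a median change of −0.88 and a range from −1.01 to −0.46. Gins1, a subunit of GINS, read 9.04, 8.99, 9.16 and 8.99 on control arrays 1 to 4 and 8.34, 7.89, 7.91 and 7.98 on LPS arrays 1 to 4, a change of −1.01 (SE 0.12, adjusted p = 4.55e-06). Every LPS array lay below every control array, and LPS array 1 was the highest of its group. Mcm6 read 10.69, 10.64, 10.68 and 10.60 in controls and 9.98, 9.50, 9.77 and 9.73 with LPS, a change of −0.90 (SE 0.08). Here too array 1 was the highest of the LPS arrays and array 2 the lowest. The other ring subunits changed by −0.96 (Mcm7), −0.92 (Mcm4), −0.89 (Mcm2), −0.86 (Mcm5) and −0.66 (Mcm3), Gins3 by −0.83 and Mcm10, which joins the fork at initiation, by −0.78. Cdc45, which binds the ring together with GINS, changed least in this group, from 8.48, 8.31, 8.37 and 8.44 to 8.05, 7.82, 7.99 and 7.94 (−0.46, SE 0.09), with no overlap.

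Origin licensing was the group with the widest spread of responses. Cdc6, the ATPase that loads the ring, read 7.76, 7.69, 8.00 and 7.75 in controls and 6.95, 6.62, 6.82 and 6.81 with LPS, which is 49.9% of the control level (SE of the log2 change 0.10). Its groups did not overlap. Orc1, the largest subunit of the origin recognition complex, read 6.56, 6.50, 6.47 and 6.42 in controls and 6.49, 6.28, 6.26 and 6.14 with LPS. Orc1 was also the dimmest of the replication genes. Its groups overlapped, and its change of −0.20 (SE 0.10, 95% interval −0.41 to 0.02, adjusted p = 0.181) was the only one that did not pass. Orc6 changed by −0.43 and Cdt1, the partner of Cdc6 in loading, by −0.36.

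Among the kinases and checkpoint genes, Clspn showed the largest fall of all 42 genes. Its product claspin couples the fork to the checkpoint kinase Chk1. Clspn read 8.95, 8.65, 8.90 and 8.78 in controls and 7.65, 7.40, 7.58 and 7.66 with LPS, which is 42.2% of the control level (−1.24, SE 0.09, adjusted p = 9.03e-09). Its groups lay far apart compared with their spread. Chek1, which encodes Chk1, changed by −0.92, Cdc7, the catalytic subunit of the origin-firing kinase, by −0.74, and Tipin, a fork protection factor, by −0.62. Dbf4, the activating subunit of Cdc7, changed least, from 8.59, 8.61, 8.58 and 8.57 to 8.06, 7.86, 8.02 and 7.98 (−0.60, SE 0.08), with no overlap.

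The clamp, its loader and the synthesis enzymes all fell. Pcna, the sliding clamp, went from 11.95, 11.85, 11.94 and 11.86 to 11.29, 11.18, 11.19 and 11.21 (−0.68, SE 0.05). The spread within each group was 0.05, so that this fall, moderate in size, had the second smallest p-value of the 42 genes. A second probe set named Pcna, whose probes may share targets with the first, changed by −0.69. The clamp loader subunits all fell. Rfc5 went from 9.67, 9.48, 9.70 and 9.47 to 8.86, 8.61, 8.82 and 8.79 (−0.81, SE 0.15), Rfc3 changed by −0.72, and Rfc2 went from 8.80, 8.82, 8.90 and 8.74 to 8.30, 8.14, 8.44 and 8.27 (−0.52, SE 0.08). Neither Rfc5 nor Rfc2 had overlapping groups. Of 8 genes of strand synthesis 8 fell, with a median change of −0.77. Lig1, the ligase that seals Okazaki fragments, read 9.26, 9.37, 9.34 and 9.07 in controls and 8.39, 8.15, 8.27 and 8.15 with LPS (−1.02, SE 0.10). Its LPS level was 49.3% of the control level. Fen1, the flap nuclease that trims those fragments, changed by −0.90 and by −0.61 on its second probe set. Pole, the catalytic subunit of the leading strand polymerase, changed by −0.85, and Pold1, that of the lagging strand polymerase, by −0.72. The primase genes Prim1 (−0.81) and Prim2 (from 10.45, 10.24, 10.24 and 10.14 to 9.88, 9.60, 9.73 and 9.64, −0.56, SE 0.08), the alpha polymerase gene Pola1 (−0.73) and Rpa2, a subunit of the single-strand binding protein (−0.57), completed this group.

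Nucleotide supply genes fell too, with Tk1 first. This thymidine kinase of the salvage pathway went from 9.45, 9.31, 9.64 and 9.26 to 8.47, 8.07, 8.27 and 8.42 (−1.11, SE 0.12), and a second Tk1 probe set changed by −1.05. Rrm2 and Rrm1, the subunits of ribonucleotide reductase, changed by −0.86 and −0.70. Dut, which removes dUTP, read 7.94, 7.70, 7.86 and 7.72 in controls and 7.57, 7.15, 6.83 and 7.09 with LPS (−0.64, SE 0.13). Its LPS arrays spread more widely than those of the other 3 genes of this role and still lay below all controls. Of 26 further nucleotide supply genes, which also serve RNA and cofactors, 5 rose and 7 fell with a median change of −0.02. Those with the smallest p were Dck, the deoxycytidine kinase (−0.67), Impdh1, of guanine nucleotide synthesis (0.82), Samhd1, which degrades deoxynucleotides (0.41), and Nme2 (0.36).

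Chromatin factors and regulators complete the list. Uhrf1, which brings the maintenance DNA methyltransferase to new DNA, changed by −0.93, and the chromatin assembly factor genes Chaf1a and Chaf1b by −0.89 and −0.81. Slbp, whose product binds the stem loop of histone mRNA, changed by −0.70, and its second probe set by −0.80. Of 28 measured replication-dependent histone genes, 25 fell and 0 rose, with a median change of −0.85. H2bc14 (−1.15), H2bc18 (−0.93), H2bc3 (−1.26) and H1f1 (−1.40) had the smallest p, and since histone genes are near-identical copies their probes may share targets. Among the S phase activators, E2f2 went from 8.29, 8.21, 8.36 and 8.12 to 7.27, 7.09, 7.28 and 7.15 (−1.05, SE 0.08). E2f1 changed by −0.56. Ccne1, which encodes cyclin E1, went from 9.32, 9.30, 9.39 and 9.15 to 9.13, 8.71, 8.97 and 8.69 (−0.41, SE 0.09, adjusted p = 0.00143).

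Lists of related genes outside the 42 give the setting. Of 42 other replication genes 31 fell and 1 rose, with a median change of −0.49, led by smallest p by the maintenance methyltransferase gene Dnmt1 (−0.82), the checkpoint activator Topbp1 (−0.98), the fork scaffold Wdhd1 (−1.01) and Gmnn, which encodes the licensing inhibitor geminin (−1.24). Of 18 homologous recombination genes 16 fell and 0 rose (median −0.59), among them Brca1 (−1.11) and Rad54l (−1.07). Of 28 regulators of the step from G1 to S 21 fell and 4 rose (median −0.54). The genes with the smallest p were E2f7 (−1.27) and E2f8 (−1.62), repressors that are themselves made in S phase, Tfdp2, an E2F partner (−1.15), and Rbl1, a retinoblastoma family member (−0.98). Of 7 CDK inhibitors measured, 0 rose and 4 fell, namely Cdkn2c (−2.05), Cdkn2d (−0.55), Cdkn1b (−0.41) and Cdkn1c (−0.32), while Cdkn1a changed by 0.12 (adjusted p = 0.299).

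LPS+DHA5HT against DHA5HT repeats the LPS comparison on 8 other arrays, both groups of which held the conjugate. Of the 42 genes 39 fell and 0 rose, and all 39 were among the 41 lowered by LPS alone (95.1% of those). With 41 and 39 of 42 genes lower, an overlap near this size was fixed by the counts. Among all genes 15.7% fell and 12.4% rose. The count was 39 without LPS+DHA5HT array 1 and 38 without LPS+DHA5HT array 2, 3 or 4. The median change was −0.59, which leaves 66.4% of the DHA5HT level (−0.66 without LPS+DHA5HT array 1), and 37 genes had groups that did not overlap, against 15.6% of all genes (12.8% lay apart in the other direction). The 3 that did not pass were the licensing genes Orc1 (−0.14) and Orc6 (−0.18, adjusted p = 0.129) and the cyclin gene Ccne1 (0.06, SE 0.09, 95% interval −0.13 to 0.25). Tipin changed by −0.33 (adjusted p = 0.0316). Its call was lost after centring and in 6 of 8 fits that left out 1 array, and was kept without DHA5HT array 4 and without LPS+DHA5HT array 1 (−0.38 to −0.26 over the 8 fits, adjusted p 0.0196 to 0.111).

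Set side by side, 36 of the 42 changes were less negative with DHA5HT present and 6 were more negative. Over all 18820 genes 9129 such differences were positive and 9691 negative. Without LPS+DHA5HT array 1 the counts for the replication genes were 29 and 13. Falls of at least 1.5-fold were seen for 33 of them without and 23 with the conjugate. Shares over all genes were not counted for these last figures. The replication genes shifted together by array, so their signs are not independent. Chaf1b changed by −0.81 without and −0.46 with it, Mcm4 by −0.92 and −0.58, Prim1, of the primase, by −0.81 and −0.51, and Pcna by −0.68 and −0.47. The 6 genes with larger falls were Tk1 (−1.11 and −1.22), Rfc5 (−0.81 and −0.84), Dbf4 (−0.60 and −0.68), Rrm1 (−0.70 and −0.71), Rpa2 (−0.57 and −0.60) and Cdt1 (−0.36 and −0.39). The difference between these responses is the interaction, which was called for 0 of the 42 genes by limma and for 0.329% of all genes (0.165% in each direction). At an unadjusted p under 0.05 it held 9 of 42, against 7.65% of all genes, and all 9 values were positive. Without LPS+DHA5HT array 1, 6 of 42 reached that p and 0 were called. The largest interaction values were those of Ccne1 (0.48, SE 0.13, 95% interval 0.21 to 0.74, adjusted p = 0.189), Cdc6 (0.46, SE 0.14, adjusted p = 0.289) and Chaf1b (0.35, SE 0.11, adjusted p = 0.345), so a difference in the LPS response is not shown for any single gene.

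**Figure D3:**
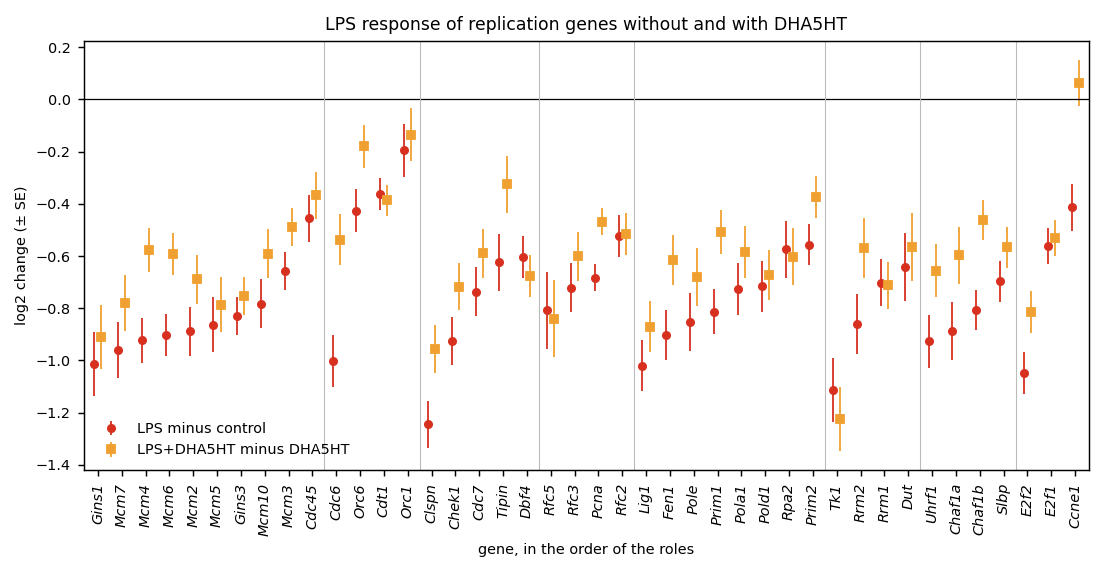
Log2 change (± SE) of each of 42 replication genes for LPS minus control (circles) and for LPS+DHA5HT minus DHA5HT (squares), on 4 arrays per group, with genes in the order of their roles and grey lines between roles. Squares lie above circles for 36 genes, and the square of Ccne1 lies near 0.

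DHA5HT in LPS-treated cells compares LPS+DHA5HT with LPS arrays directly, which share the LPS arrays with the first comparison. Of the 42 replication genes 7 rose and 0 fell, against 0.818% and 0.972% of all genes (1.79% in either direction), a balance that centring moved from 154 higher and 183 lower to 110 and 216. The median change was 0.21, or 116% of the LPS level, and 38 of the 42 signs were positive. Over all genes the median was 0.00199, with 9581 signs positive and 9239 negative. Without LPS+DHA5HT array 1 the median was 0.13, with 33 positive signs. LPS array 1 stayed in that fit, and array 1 had the highest median over the 42 genes in both groups. For 9 genes every LPS+DHA5HT array lay above every LPS array, against 3.97% of all genes (3.91% lay apart in the other direction). Same-numbered arrays deviated together in this comparison, and with the replicate number as a block 14 genes rose, against 1.72% of all genes. The count also changed with the arrays in the fit, and the reason was not tested. A fit on these 8 arrays alone called 0 of 42 (lowest adjusted p = 0.0669, 18 with an unadjusted p under 0.05) and 0.0691% of all genes as higher. For this fit the share of all genes at that unadjusted p was not counted. Without LPS+DHA5HT array 1 the count of genes called higher was 2, against 0.399% of all genes. The count was also 2 without LPS array 2 or LPS array 4. Leaving out array 3 of either group or LPS+DHA5HT array 4 gave 4. Without LPS array 1 the count rose to 10, and without LPS+DHA5HT array 2 only the call of Chaf1b was lost. In those other leave-outs the share over all genes was not counted.

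Cyclin E1 showed the largest of these increases. Ccne1, whose product drives origin firing with Cdk2, read 9.13, 8.71, 8.97 and 8.69 on LPS arrays 1 to 4 and 9.55, 9.28, 9.34 and 9.40 on LPS+DHA5HT arrays 1 to 4 (0.52, SE 0.09, 1.43-fold, adjusted p = 0.00637). The groups did not overlap, and the LPS+DHA5HT mean of 9.39 ± 0.11 was close to the control mean of 9.29 ± 0.10. Clspn read 7.65, 7.40, 7.58 and 7.66 with LPS and 8.21, 7.91, 8.19 and 7.91 with both (0.48, SE 0.09, adjusted p = 0.0125), which left it below every control array. The calls of Ccne1 and Clspn held in each of the 8 leave-outs (highest adjusted p 0.0278 and 0.0493) and were lost in the fit on the 8 compared arrays (0.0700 and 0.0669).

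The other calls depended more on single arrays. Fen1 read 8.13, 7.94, 8.24 and 7.93 with LPS and 8.73, 8.44, 8.60 and 8.34 with both (0.47, SE 0.10, adjusted p = 0.0196). Its groups did not overlap, and its second probe set changed by 0.25. The call was lost without LPS array 4, LPS array 2 or LPS+DHA5HT array 1 (0.40 to 0.53 over all leave-outs, adjusted p up to 0.0721). Cdc6 read 6.95, 6.62, 6.82 and 6.81 with LPS and 7.48, 7.05, 7.29 and 7.19 with both (0.45, SE 0.10, adjusted p = 0.0267). Each LPS+DHA5HT array of Cdc6 lay between the LPS and the control arrays. Chaf1b read 8.19, 7.97, 7.96 and 7.95 with LPS and 8.59, 8.37, 8.21 and 8.26 with both (0.34, SE 0.08, adjusted p = 0.0337), and 3 of the 8 leave-outs kept its call (without LPS array 1, LPS+DHA5HT array 3 or LPS+DHA5HT array 4, with adjusted p up to 0.0977 over all 8).

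Pcna read 11.29, 11.18, 11.19 and 11.21 with LPS and 11.53, 11.40, 11.44 and 11.42 with both (0.23, SE 0.05, adjusted p = 0.0332), with SDs of 0.05 and 0.06 and no overlap between the groups. Leaving out 1 array kept the calls of Cdc6 and Pcna in 2 of 8 fits, without LPS array 1 and without LPS+DHA5HT array 2 (adjusted p up to 0.0910 and 0.0975). E2f2 read 7.27, 7.09, 7.28 and 7.15 with LPS and 7.70, 7.40, 7.58 and 7.41 with both (0.32, SE 0.08, adjusted p = 0.0499). Leaving out 1 array kept its call in 1 of 8 fits, without LPS+DHA5HT array 2. It was also lost after centring, with array weights and with all probe sets tested. E2f1 (0.24, adjusted p = 0.0999) and Slbp (0.23, adjusted p = 0.170) had groups that did not overlap and did not pass. The 7 genes added by the replicate block were Mcm4 (0.32, adjusted p = 0.00818 with the block), Mcm6 (0.30, 0.0291), Rrm2 (0.36, 0.0244), Prim1 (0.33, 0.0161), Prim2 (0.23, 0.0467), Chaf1a (0.41, 0.00587) and Uhrf1 (0.35, 0.00811).

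**Figure D4:**
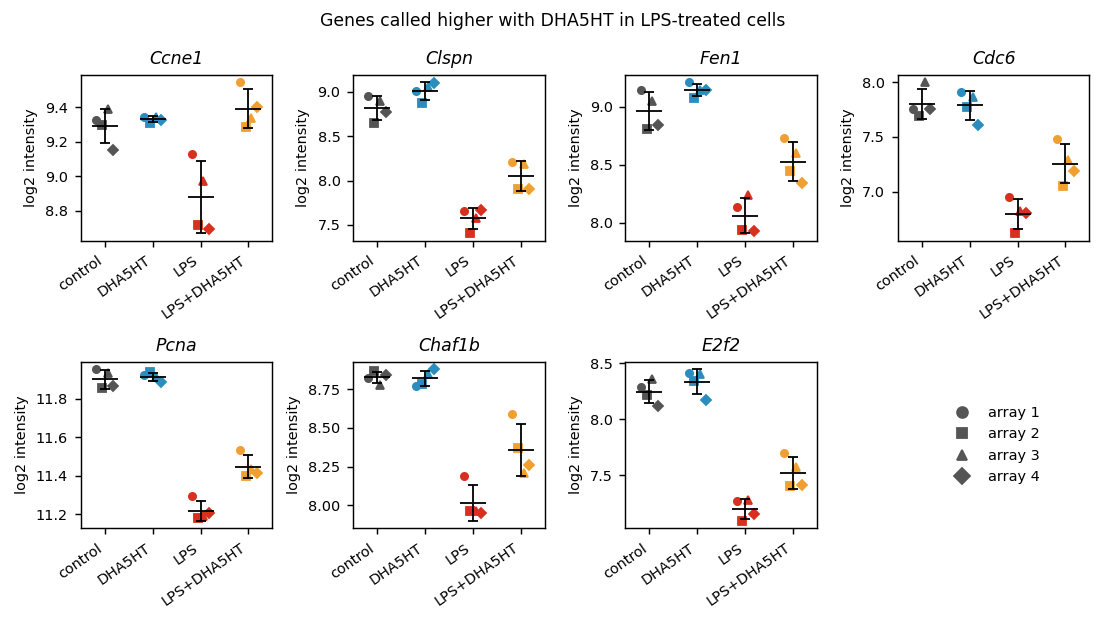
Log2 intensity of the 7 replication genes called higher with DHA5HT in LPS-treated cells, on each of 4 arrays per group (marker shape gives the replicate number), with the mean and SD in black. Each panel has its own axis, which does not start at 0. All 4 LPS+DHA5HT arrays lie above all 4 LPS arrays in every panel, and for Ccne1 alone they reach the level of the controls.

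By role, the E2F and cyclin genes (median 0.32 over 3 genes) and the chromatin factors (0.34 over 4) had the larger changes with DHA5HT in LPS-treated cells, and nucleotide supply had the smallest (0.00762 over 4, with Tk1 at −0.07 and its second probe set at 0.06, Dut at −0.03, Rrm1 at 0.04 and Rrm2 at 0.36). All 10 helicase genes had a positive change, from 0.08 (Gins1) to 0.32 (Mcm4). In limma 0 of them passed (6 at an unadjusted p under 0.05, against 13.7% of all genes in either direction). No difference between roles was tested. Of the 42 other replication genes 2 rose, Wdhd1 (0.59, adjusted p = 0.0046) and Dscc1, of an alternative clamp loader (0.57, adjusted p = 0.0385), and of the 28 regulators 3 rose, Myc (0.51), E2f8 (0.59) and E2f6 (0.30). Of the 7 CDK inhibitors Cdkn1b, which encodes p27, fell by 0.26 (adjusted p = 0.0477), and of 18 recombination genes Rad51ap1 rose by 0.42. Without LPS+DHA5HT array 1 Wdhd1 kept its call (0.52, adjusted p = 0.0161), and Dscc1 (0.49), Myc (0.41), E2f8 (0.49), E2f6 (0.28), Cdkn1b (−0.22) and Rad51ap1 (0.37) lost theirs, with adjusted p from 0.0852 to 0.128.

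Arrays with the same number shared a shift. The median over the 42 genes of the difference from the control mean was 0.07 and 0.08 on control arrays 1 and 3 and −0.06 and −0.07 on control arrays 2 and 4. On DHA5HT arrays 1 and 3 it was 0.08 and 0.05, and on arrays 2 and 4 it was 0.02 and −0.03. With LPS it was −0.61 and −0.77 on arrays 1 and 3 and −0.92 and −0.86 on arrays 2 and 4, and with LPS+DHA5HT −0.36 and −0.52 against −0.66 and −0.69. Arrays 1 and 3 thus lay above arrays 2 and 4 in each of the 4 groups. Between same-numbered arrays, LPS+DHA5HT minus LPS had a median of 0.24, 0.22, 0.24 and 0.15 for numbers 1 to 4, with 39, 36, 40 and 29 of the 42 genes higher. Of all 18820 genes 9728, 9501, 9183 and 9547 were higher.

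Genes of mitosis and spindle, the next stage of the cycle, give a point of comparison. With LPS 27 of 28 fell (median −1.01), with Ect2 (−1.18), Ncaph (−1.30), Kif11 (−1.42) and Smc2 (−0.82) at the smallest p. With DHA5HT in LPS-treated cells 0 of the 28 passed in limma (3 at an unadjusted p under 0.05, against 13.7% of all genes). The median change was −0.08, against 0.21 for the replication genes (−0.20 and 0.13 without LPS+DHA5HT array 1). The same-numbered differences of the mitosis list were 0.10, −0.08, 0.11 and −0.49 for numbers 1 to 4, with 25, 9, 23 and 0 of 28 genes higher. The sign of its median thus varied by array, and a mitosis median without LPS+DHA5HT array 4 was not computed. That array was the one that stood apart on the second principal component. The median difference of the mitosis list from the control mean was −1.53 there and −0.72 to −1.23 on the other LPS+DHA5HT arrays. The replication genes stood at −0.69 on array 4. Rfc5 was the replication gene with the largest spread in this group, 9.19, 8.65, 8.97 and 8.18 on LPS+DHA5HT arrays 1 to 4, lowest on array 4. Histone genes changed by a median of 0.05 with DHA5HT in LPS-treated cells (−0.02 without LPS+DHA5HT array 1). Of these 28 genes 0 passed and 3 had an unadjusted p under 0.05 in limma, again against 13.7% of all genes. The difference between these lists was not tested.

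**Figure D5:**
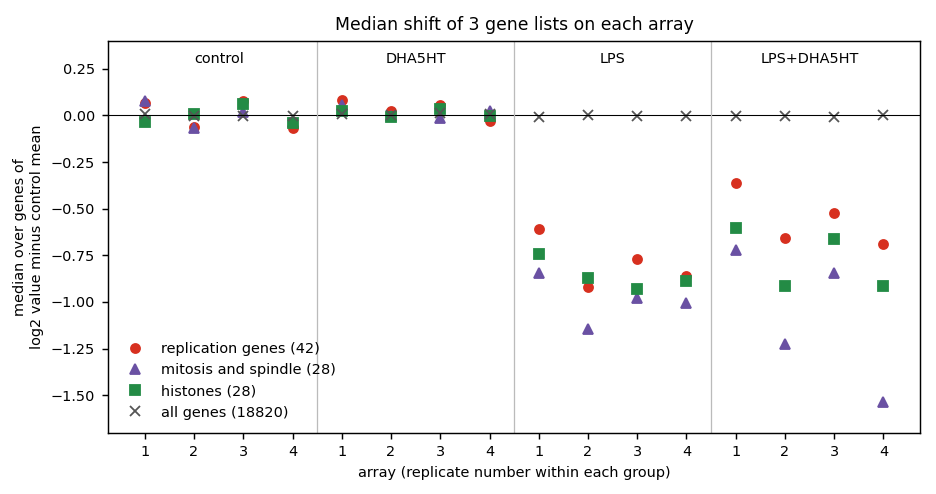
Median over the genes of a list of the log2 value minus the control mean, on each of 16 arrays, for the replication genes, mitosis and spindle genes, replication-dependent histone genes and all genes. The 3 gene lists lie below 0 on every LPS and LPS+DHA5HT array, and on LPS+DHA5HT array 4 the mitosis list is at −1.53 and the replication genes at −0.69.

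DHA5HT without LPS asks what the conjugate did in unstimulated cells. By limma 0 of the 42 genes changed and 2 reached an unadjusted p below 0.05, against 0.6% and 9.85% of all genes. The median change was 0.04 and the range ran from −0.15 (Tipin) to 0.20 (E2f1), with 95% intervals of single genes that stayed between −0.38 and 0.42. E2f1 read 8.02, 7.81, 8.03 and 7.90 in controls and 8.06, 8.10, 8.27 and 8.14 with DHA5HT (SE 0.07, adjusted p = 0.306). Its groups did not overlap, and Rfc2 was the other gene of which this held (0.19, adjusted p = 0.456), where 3.03% of all genes lay apart upward and 2.85% downward. Ccne1 stood at 9.33 ± 0.02 with DHA5HT and at 9.29 ± 0.10 in controls, and Cdc6 at 7.79 ± 0.13 and 7.80 ± 0.14. The CDK inhibitor gene Cdkn1a, known as p21, fell by 0.37 (adjusted p = 0.0396), read 10.70, 10.90, 10.64 and 10.96 in controls and 10.33, 10.38, 10.45 and 10.57 with DHA5HT, and was the 1 of 7 CDK inhibitors that passed.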

How the data were processed

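RNA of 16 samples was hybridised to Affymetrix whole-transcript arrays, 100 ng per sample per the labels. The deposited values are log2 intensities made by the authors with RMA (background correction, normalization between arrays, 1 summary per probe set), per the submitters' processing notes. Its version, the annotation and any filter were not given in the sources used here. Of 35556 probe sets 21218 named 1 gene; for genes with several, the brightest was kept, which left 18820 genes. The number of arrays limits the precision.

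Groups followed the titles. Tests used limma 3.58.1 in R 4.3.3 (4 group means over 16 arrays, 12 residual degrees of freedom, two-sided, Benjamini-Hochberg over all genes within each of 5 comparisons, threshold 0.05), and the procedure was tested on simulated data. In both DHA5HT comparisons deviations of same-numbered arrays from their group means correlated at 0.116 to 0.205 and 0.131 to 0.183. All these values lay above the 0.1 required for pairing. The main fits and the leave-outs still held no replicate block, so this pairing entered only the alternative with the block. Arrays were not taken as paired in the LPS comparisons, where 1 pair each lay below (0.0995 and 0.0699).

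Members, lists and the rule for named genes were chosen with earlier results of these data known. The rule names every member, gives arrays for the extremes of each role and for members called with DHA5HT, and takes up to 4 genes of each other list by p. Lists were other replication genes, G1 to S regulators, CDK inhibitors, p53 targets, homologous recombination, mitosis, nucleotide supply, histones, an LPS check and cell type markers. The alternatives tried were an intensity trend, a brightness filter, the replicate number as a block, quantile normalization, centring, array weights, a fit on the compared arrays, all probe sets, and leaving out each array. Figures used matplotlib 3.10.9 in Python 3.11.15. Promoters came from RefSeq (GRCm38.p6), whose coordinates describe those sequences and not the probes.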

Additional observations from a re-analysis of the deposited data

Results flagged for a closer look

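Among 168 sets of 4 arrays (42 genes in 4 groups), 4 held an array far from the other 3, where chance gives about 1 in 20. Gins1 stood at 8.53 on LPS+DHA5HT array 1, the array with conflicting labels, and at 7.93 to 8.00 on the other arrays of that group. Orc6 read 8.60 on LPS array 1 against 8.30 to 8.32, and Chaf1b 8.19 on the same array against 7.95 to 7.97. Tk1 was lower on DHA5HT array 4, at 9.35 against 9.48 to 9.51.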

How the results depend on the processing

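With LPS 41 replication genes were lower in each of the 16 alternatives, and with DHA5HT present 38 to 40 (38 to 39 when 1 array was left out). The counts of 0 for DHA5HT without LPS and for the interaction were 0 in every alternative run. For DHA5HT in LPS-treated cells the 7 genes called higher became 14 with the replicate block, against 1.72% of all genes. They became 12 with an intensity trend and 13 among genes brighter than the median gene, where the share over all genes was not counted. In the fit on the compared arrays alone the count was 0, against 0.0691% of all genes, and from 2 to 10 when 1 array was left out. The fit on 8 arrays has fewer degrees of freedom for the spread. The replication genes also had a larger median SD with LPS (0.15) and LPS+DHA5HT (0.17) than in controls (0.10) and with DHA5HT (0.08). The part of each in the count was not tested, nor were other causes. For single genes in that comparison 23 results gained a call and 37 lost it, and no called change was reversed. In the LPS comparisons the block added the call of Orc6 with DHA5HT present (adjusted p = 0.0450) and changed no other call, and in DHA5HT without LPS it changed none. Group means of the replication genes, at 6.29 or above, lay above the median level of markers that macrophages lack (3.51). The brightest of those markers, Krt8, stood at 5.21 to 5.45 as group means. Nearest to it was Orc1, at 6.29 with LPS and at 5.99 on LPS+DHA5HT array 4.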

Other observations

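The damage response list moved in both directions with LPS. Of its 24 measured genes 11 rose and 8 fell (median 0.09), against 12.6% and 15.8% of all genes. Gadd45a (2.81), Gadd45b (1.43) and the polo-like kinase gene Plk3 (2.07), known as stress-induced genes, rose, and Wee1, which encodes the kinase that restrains Cdk1, fell by 1.54. With DHA5HT in LPS-treated cells Bbc3, which encodes the pro-apoptotic protein PUMA (−0.55, adjusted p = 0.00195), Gadd45b (−0.44) and the antiproliferative gene Btg2 (−0.39) fell, and Wee1 rose by 0.44. Without LPS+DHA5HT array 1, Bbc3 (−0.57), Gadd45b (−0.46) and Btg2 (−0.41) kept their calls and Wee1 (0.34, adjusted p = 0.121) lost its own. Bbc3 was also the gene of this list called in the interaction (1 of 24, against 0.329% of all genes), and its call held without that array.

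Without LPS, DHA5HT lowered 2 of 26 nucleotide supply genes outside the 42, against 0.478% of all genes. The 2 were Dck (−0.44, adjusted p = 0.000486) and Samhd1, which degrades deoxynucleotides (−0.25, adjusted p = 0.0393). Dck was also called in the interaction, the 1 of 26 that was, against 0.329% of all genes. Its call held without LPS+DHA5HT array 1. All 6 genes of the LPS check rose with LPS, among them Il6 by 7.89 and Il1b by 8.10.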
